A study of Homo sapiens with 4 samples.

Results

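Antisense transcripts are RNAs made from the strand opposite a gene, and 137 of them were expressed well enough in A2780 cells to be followed here. They were chosen as rows that the deposited tables class as antisense, that list exons, and that held 200 or more exon reads summed over 4 libraries. GAS5, ZFAS1 and names starting with SNHG, which host small nucleolar RNAs, were left out. The tables list 57773 genes, of which 5273 are antisense, 4770 of these list exons and 2028 had at least 1 exon read. The read minimum kept 141, and 4 were removed by name (SNHG12, SNHG7, SNHG10 and ZFAS1). The values that chose the members are summed read counts over all 4 libraries, not a difference between groups. Even so, 28 members reached 200 only through the group in which they were higher: with both groups at the lower level they would have had fewer. Just inside the minimum were AC113189.5 with 200 summed reads, CASC2 with 202 and RP11-295G20.2 with 203. Just outside it were RP11-660L16.2 with 199, RP11-24F11.2 with 198 and RAP2C-AS1 with 197.

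RNA sequencing had been done on A2780 cells, a human ovarian cancer line in long use, with a wild-type genotype (WT) given for all 4 libraries. Libraries 1 and 2 came from cells given DMSO, the solvent, with no treatment time given. Libraries 3 and 4 came from cells given 10 ug/mL wogonin, a plant flavone, for 48 h. The study asked whether wogonin acts on the growth of these cells through DNA demethylation, and the present comparison asks which antisense transcripts differed in level between both groups.

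An antisense transcript can lie wholly within its coding neighbour, can overlap only its start or its end, or can leave from a shared promoter in the other direction. Some act on the neighbouring gene, through the act of transcription, by pairing with its mRNA or by carrying chromatin proteins to it, while for most no role is known. Many are short-lived in the nucleus, where the RNA exosome removes them, and some, such as TUG1 and FGD5-AS1, are abundant spliced RNAs. In this set 64 of 137 members carry only a clone name in the tables, and 132 had a current symbol in the reference table used here.

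The libraries held 11005921 to 11839562 exon reads, of which the members together made up 0.239% and 0.248% in the DMSO libraries and 0.206% and 0.205% in those with wogonin. Intron reads made up 5.26%, 5.29% and 5.61% of the reads of rows with exons in DMSO 1, DMSO 2 and wogonin 4, and 7.96% in wogonin 3. Mitochondrial genes held 3.03% of exon reads in wogonin 4 and 1.45 to 1.67% in the other libraries. The part of these differences in the results below was not tested. Of 9 markers for the labelled ovarian epithelial origin, VIM, an intermediate filament of mesenchymal cells, was the only one tested. EPCAM had 23 summed reads, KRT8 10, PAX8 2 and MUC16 0. Among 12 markers of other cell types, PTPRC, CD3E, CDH5 and VWF had no read in any library, and the summed level of the 12 was 26.6 to 35.2 CPM. COL1A1 was the only one past the threshold, at -0.67. CD68, also on this list, had 847 summed reads and did not pass the test (edgeR, -0.06, adjusted p = 0.75). The labels do not say whether both libraries of a group are from separate cultures, and the p-values therefore cover the spread between these samples alone, part of which may be technical. In RNA from whole cultures, fewer cells of a type and less RNA per cell cannot be told apart.

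Where an antisense transcript starts close to a coding gene, both share a promoter region, and 72 of the 137 members began within 1000 bases of a coding start on the opposite strand. A RefSeq promoter window (GRCh38.p14, 250 bases before to 50 bases after the start) could be matched by symbol or ID to 86 members. Printed here are the windows of 4 members that return below, SNAI3-AS1 and MCM3AP-AS1, which rose together with a cholesterol synthesis gene starting beside them, and RNASEH1-AS1 and MAFG-AS1, which moved against the gene beside them. Capitals mark the letters searched for, on either strand: TATAAA (the TATA box), CCAAT (the CCAAT box), CACGTG (an E-box) and TCACNCCAC (a core of the sterol regulatory element). The windows are chr16:88663123-88663422, chr21:46228981-46229280, chr2:3558136-3558435 and chr17:81927579-81927878 on the plus strand, in this order.
SNAI3-AS1: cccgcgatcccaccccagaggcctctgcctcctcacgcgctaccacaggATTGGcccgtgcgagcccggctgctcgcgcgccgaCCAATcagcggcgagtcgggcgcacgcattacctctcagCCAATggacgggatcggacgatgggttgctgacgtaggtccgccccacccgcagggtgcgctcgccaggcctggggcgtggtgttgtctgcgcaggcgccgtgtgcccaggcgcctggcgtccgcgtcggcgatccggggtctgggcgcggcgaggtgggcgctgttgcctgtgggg
MCM3AP-AS1: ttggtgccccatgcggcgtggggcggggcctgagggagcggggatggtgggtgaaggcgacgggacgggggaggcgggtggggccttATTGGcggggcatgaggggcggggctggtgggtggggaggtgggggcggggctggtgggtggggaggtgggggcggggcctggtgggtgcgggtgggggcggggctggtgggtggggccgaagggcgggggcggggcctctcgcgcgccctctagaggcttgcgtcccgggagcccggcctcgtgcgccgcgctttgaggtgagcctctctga
RNASEH1-AS1: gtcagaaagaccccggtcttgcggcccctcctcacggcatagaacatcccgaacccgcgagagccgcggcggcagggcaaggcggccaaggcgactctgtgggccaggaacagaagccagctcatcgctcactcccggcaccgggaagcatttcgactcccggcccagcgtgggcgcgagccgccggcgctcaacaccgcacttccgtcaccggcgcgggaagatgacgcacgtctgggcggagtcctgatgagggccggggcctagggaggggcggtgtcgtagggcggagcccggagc
MAFG-AS1: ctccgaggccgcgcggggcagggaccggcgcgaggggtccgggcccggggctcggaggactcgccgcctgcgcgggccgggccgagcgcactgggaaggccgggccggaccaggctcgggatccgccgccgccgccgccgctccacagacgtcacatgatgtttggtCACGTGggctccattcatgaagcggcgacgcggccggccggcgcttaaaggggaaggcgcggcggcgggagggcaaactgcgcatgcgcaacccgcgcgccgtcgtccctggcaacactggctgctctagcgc

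These windows held 39, 27, 35 and 47 CpG dinucleotides, against a median of 28 in the 86 matched members and 14 in all 27326 promoters of the table. CCAAT stood in the SNAI3-AS1 window at 3 places and in the MCM3AP-AS1 window at 1, and CACGTG stood in the MAFG-AS1 window at 1 place. The RNASEH1-AS1 window held none of the letters searched. Over the members' windows, CCAAT occurred in 40.7% against 35.7% of all promoters, CACGTG in 8.14% against 7.44%, and TATAAA in 4.65% against 11.9%. TCACNCCAC occurred in 0 of 86 members' windows and in 1.15% of all promoters. A match is a description of the letters and not a bound site.

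As many members were higher as were lower after wogonin. Of the 137, 42 were higher (30.7%) and 43 lower (31.4%), and 52 did not pass the test (edgeR's quasi-likelihood test with Benjamini-Hochberg adjustment over all 13449 genes tested, threshold 0.05). Among all genes tested, 32.3% were higher and 31.5% lower, so the share of members called, 62.0% against 63.8%, was near the background. Their log2 fold changes (wogonin over DMSO) ran from -2.55 to 2.98 with a median of -0.06, and the median of all genes tested was 0.00. Changes of 1 log2 unit or more were called for 19 members upward and 15 downward, 24.8% of members against 16.3% of all genes. Of these 34, 17 were among the 28 members that reached the read minimum through 1 group, which the choice of members made likely to differ, so the share is no result about the members. The groups did not overlap for 107 members (78.1%, against 81.9% of all genes). DESeq2 called 33 higher and 31 lower, with backgrounds of 26.0% and 23.8% (49.8% either way). When 1 library was left out at a time, 62 of the 85 called members stayed past the threshold in all 4 fits. The call was lost without DMSO 1 for 12, without DMSO 2 for 13, without wogonin 3 for 9 and without wogonin 4 for 6.

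**Figure D1:**
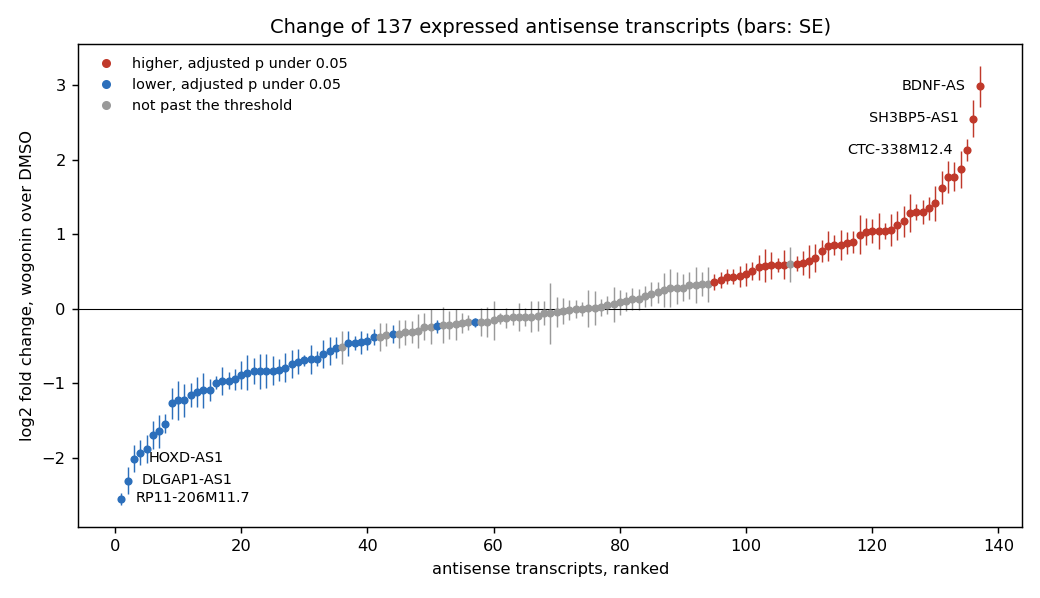
Log2 fold change (wogonin over DMSO, vertical axis) of each of 137 antisense transcripts, ranked from the largest fall to the largest rise on the horizontal axis, with bars of 1 standard error. Red points (42) were higher and blue points (43) lower at an adjusted p under 0.05, and grey points (52) did not pass; the ends of the ranking reach -2.55 and 2.98.

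The members were low transcripts. Their median level in the DMSO libraries was 3.31 RPKM, the authors' length-scaled unit, with a range of 0.255 to 259 RPKM, against a median of 7.22 RPKM for 12159 tested coding genes. The coding genes had passed only the filter of the test, which let in rows under 200 summed reads, so the medians rest on unlike minima. Summed exon reads of the members ran from 200 to 10030 with a median of 415. Per length, the highest was RP11-206M11.7 (current symbol TM4SF18-AS1), at 259 RPKM in DMSO and 40.3 RPKM after wogonin. It is a transcript of 2 exons and 551 exonic bases on chromosome 3 (149002569-149051440, plus strand, GRCh37).

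FGD5-AS1 had the most reads, 2853 and 2750 with DMSO and 2205 and 2222 after wogonin. This RNA, studied mostly as a miRNA-binding RNA in tumours, was slightly lower after wogonin (edgeR, log2 fold change -0.18 ± 0.06 SE, adjusted p = 0.013). The call was lost without DMSO 1 (-0.14). TUG1, a nuclear RNA named for its induction by taurine in the retina, had 2398 and 2623 reads in DMSO and 1268 and 1516 after wogonin. Its level fell from 209 ± 7.47 to 129 ± 15.1 CPM (mean ± SD, n = 2 in each group), a log2 fold change of -0.69 ± 0.07 (adjusted p = 1.6e-06). CCDC144NL-AS1, listed under a clone name in the tables, fell from 857 and 926 reads to 380 and 422 (-0.99 ± 0.08, adjusted p = 3.7e-08). In both, each wogonin library lay below each DMSO library.

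TP73-AS1, which overlaps the end of the p53 relative TP73, had 525 and 461 reads in DMSO and 606 and 526 after wogonin. Scaled to depth the groups separated narrowly (0.36 ± 0.10, adjusted p = 0.0072), and the call was lost without DMSO 2 (0.23, adjusted p = 0.13) or without wogonin 3 (0.25, adjusted p = 0.083). LINC00094 (BRD3OS) and AC007620.3, also among the 10 most abundant members, did not pass the test, at -0.13 ± 0.08 and -0.19 ± 0.13. THAP9-AS1 was called lower by edgeR at -0.24 ± 0.09 (adjusted p = 0.025), but not by DESeq2 (adjusted p = 0.086). The call was also lost without DMSO 2 (-0.17) and without wogonin 3 (-0.12). All of THAP9-AS1 lies along SEC31A, a coat protein gene of the secretory pathway on the same strand, and SEC31A rose by 0.67. THAP9, on the opposite strand with a start 276 bases away, fell by 1.16. Only 6.57% of the THAP9-AS1 exon reads were listed as unique to it. In its unique exon reads it fell by 0.83 and in its exon-exon junction reads by 0.57.

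Among the 12 largest rises, 8 are transcripts that reached the read minimum only through the wogonin libraries, and a rise in these was favoured by the choice of members. They are BDNF-AS, SH3BP5-AS1, MIR1302-9, RP11-324I22.4, RBM26-AS1, MAP3K14-AS1, RP11-421L21.3 and RP11-66N24.3, and their values are given as a description.

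BDNF-AS stood highest, though with both groups at its DMSO level it would have had 60 summed reads. This transcript runs antisense to BDNF, a neurotrophin gene, on chromosome 11 (27528385-27719721, plus strand). It had 11 and 19 exon reads with DMSO and 93 and 121 after wogonin. The level rose from 1.24 ± 0.436 to 9.92 ± 1.75 CPM (log2 fold change 2.98 ± 0.27, adjusted p = 1.0e-07). Reads that span its exon junctions were 4 and 3 in DMSO and 31 and 34 after wogonin (3.32, adjusted p = 3.0e-06). BDNF itself had 23 and 19 reads in DMSO and 11 and 15 after wogonin and did not pass the test (-0.53, adjusted p = 0.25). The change of BDNF-AS differed from that of BDNF by 3.34 ± 0.39 log2 units (limma pair test, adjusted p = 0.00019).

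SH3BP5-AS1 came next, with 15 and 22 reads in DMSO and 96 and 99 after wogonin (2.55 ± 0.25, adjusted p = 2.0e-07). Almost none of its reads crossed a junction, 0 and 0 against 1 and 2, and 8.62% were unique to it. Its end overlaps that of SH3BP5, a gene for a mitochondrial and Rab11-binding protein. SH3BP5 had 218, 229, 167 and 231 reads in the same library order and did not pass the test (-0.01). CTC-338M12.4 rose from 98 and 71 reads to 329 and 334 (2.13 ± 0.15, adjusted p = 4.4e-09), and its junction reads rose by 1.92. It covers TRIM52 on the opposite strand and TRIM52-AS1 on its own strand, and outside junctions none of its reads was unique.

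The other rises among the 12 largest ran from 1.28 to 1.87. RP11-324I22.4 (CCNY-AS1), which lies inside the cyclin gene CCNY, went from 38 and 38 reads to 114 and 119 (1.77 ± 0.20), and CCNY rose by 0.78. The difference between both changes did not pass the limma pair test in unique exon reads (0.81, adjusted p = 0.087) or junction reads (0.88, adjusted p = 0.063). RBM26-AS1, at the start of the RNA-binding protein gene RBM26, went from 32 and 32 to 92 and 104 reads (1.77 ± 0.22). RBM26 did not pass the test (0.08, adjusted p = 0.40), and 97.3% of the RBM26-AS1 reads were unique to it. At the DMSO level of both groups these transcripts would have had 152 and 128 summed reads.

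MAP3K14-AS1 rose from 29 and 44 to 105 and 97 reads (1.62 ± 0.22), with junction reads of 12 and 11 against 39 and 36. RP11-421L21.3 (DPH5-DT), which starts 210 bases into DPH5, a diphthamide synthesis enzyme gene, went from 28 and 38 to 77 and 81 reads (1.41 ± 0.23), and DPH5 rose by 1.01. MIR1302-9, near the end of the short arm of chromosome 9, went from 29 and 22 to 76 and 92 reads (1.87 ± 0.25), but no read of it was listed as unique and 1 crossed a junction. The row is one of a family of near-identical copies, so its reads may come from several places. TMCC1-AS1 (1.29 ± 0.16) and RP11-66N24.3 (AP1G2-AS1, 1.28 ± 0.25) made up the rest together with SNAI3-AS1 and PINK1-AS, described below.

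**Figure D2:**
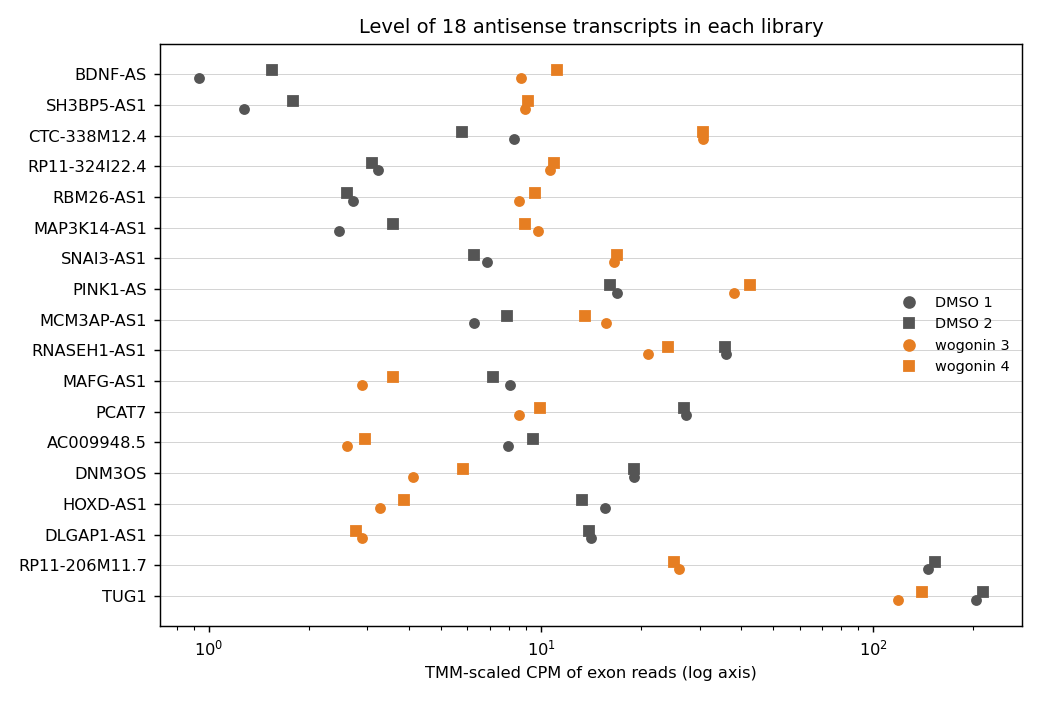
Level of 18 antisense transcripts in each of the 4 libraries, in CPM of exon reads scaled by TMM factors, on a log axis. Grey points are DMSO 1 and 2 and orange points wogonin 3 and 4; the rows run from BDNF-AS, with means of 1.24 and 9.92 CPM, to TUG1, with means of 209 and 129 CPM.

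Of the 12 largest falls, 6 reached the read minimum only through the DMSO libraries, and their values are likewise a description: DLGAP1-AS1, HOXD-AS1, RP11-521B24.3, AC009948.5, CTD-2015H6.3 and MAFG-AS1. The same holds for UBL7-AS1 and SLC16A1-AS1, below.

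RP11-206M11.7 showed the largest fall, from 1720 and 1884 exon reads in DMSO to 278 and 272 after wogonin. Its level fell from 150 ± 5.51 to 25.5 ± 0.614 CPM (log2 fold change -2.55 ± 0.08, adjusted p = 1.2e-12), and its junction reads went from 250 and 249 to 44 and 39. Outside junctions, 0.028% of its reads were unique to it. Its end lies across TM4SF18, a tetraspan membrane protein gene. In total exon reads TM4SF18 did not change past the threshold (0.02, adjusted p = 0.87). In the reads unique to TM4SF18 it fell by 0.63, and in its junction reads by 0.61. The antisense transcript fell by 2.42 in unique exon reads and by 2.43 in junction reads, so its fall was larger on every read set than that of TM4SF18.

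DLGAP1-AS1, inside the synaptic scaffold gene DLGAP1, fell from 167 and 171 reads to 31 and 30 (-2.31 ± 0.19, adjusted p = 2.2e-08), and its junction reads from 52 and 52 to 6 and 13. DLGAP1 had 510 and 601 reads in DMSO and 492 and 530 after wogonin (0.04, adjusted p = 0.73). HOXD-AS1 (HAGLR), a transcript of the HOXD gene cluster that begins beside HOXD1, fell from 184 and 163 to 35 and 42 reads (-2.01 ± 0.19, adjusted p = 1.0e-07). HOXD1, a homeobox gene, had 9 and 14 reads in DMSO and 0 and 0 after wogonin, too few for a test. With both groups at the wogonin level DLGAP1-AS1 would have had 122 summed reads and HOXD-AS1 154.

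DNM3OS runs inside DNM3, a dynamin gene, on the opposite strand, on chromosome 1 (172109461-172113934, minus strand). It is known as the host of a miR-199a hairpin, MIR199A2, whose mature products are printed here because the RNA that carries them fell. Capitals mark the seed, bases 2 to 8, from RefSeq (GRCh38.p14), and the seeds of both arms differ.
hsa-miR-199a-5p: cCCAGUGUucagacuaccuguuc
hsa-miR-199a-3p: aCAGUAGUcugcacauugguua
DNM3OS had 224 and 233 reads in DMSO and 44 and 63 after wogonin, a fall from 19.0 ± 0.00488 to 4.96 ± 1.20 CPM (-1.94 ± 0.17, adjusted p = 4.9e-08). Its junction reads, 71.6% of all its exon reads, fell from 165 and 166 to 34 and 39. The MIR199A2 row itself had 0 reads in these libraries, so these data do not measure the mature miRNA. DNM3 also fell, by 1.29, from 1664 and 1808 reads to 590 and 682. The fall of DNM3OS exceeded that of DNM3 by 0.63 ± 0.18 (limma pair test, adjusted p = 0.019), which did not pass without DMSO 1 (adjusted p = 0.17), DMSO 2 (0.11) or wogonin 3 (0.092).

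RP11-521B24.3 (MTA1-DT) fell from 159 and 171 to 47 and 33 reads (-1.88 ± 0.19), and PCAT7, first described in prostate cancer, from 322 and 329 to 92 and 108 (-1.54 ± 0.13). AC009948.5, whose current symbol CHROMR stands for a cholesterol-induced RNA, fell from 94 and 116 to 28 and 32 reads (-1.64 ± 0.22, adjusted p = 6.9e-06). Its end overlaps PRKRA, the gene of an activator of the kinase PKR, which had 638, 677, 551 and 589 reads and did not pass the test (-0.05). MAFG-AS1 (MILIP) fell from 95 and 88 to 31 and 39 reads (-1.23 ± 0.22). Of these 4, PCAT7 would have passed the minimum at the level of either group.

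Others among the 12 largest falls were RP4-791M13.3 (-1.70), RP11-149I23.3 (-1.27), CTD-2015H6.3 (FAM151B-DT, -1.23) and CTD-3138B18.5 (ZNF8-DT, -1.16). TTN-AS1, opposite the giant muscle protein gene TTN, fell from 109 and 128 to 70 and 49 reads (-0.83 ± 0.20), and TTN fell by 0.49. TMPO-AS1 fell by 0.71 together with TMPO, a nuclear lamina protein gene, which fell by 0.59. UBL7-AS1 (UBL7-DT) was called lower by edgeR (-0.84 ± 0.24, adjusted p = 0.0052) and not by DESeq2 (adjusted p = 0.068). PTOV1-AS1 (-0.11) and STARD4-AS1 (-0.18) did not pass the test. STARD4-AS1 starts 364 bases from STARD4, a sterol carrier gene that fell by 1.10.

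The share of reads unique to a member was set beside how it lies next to its coding partner. The members fell into 45 with overlapping starts (head to head), 44 with overlapping ends (tail to tail), 16 inside the partner, 14 with the partner inside them and 18 with no overlapping coding row. Each deposited row also gives how many reads were unique to it. Of the exon reads outside junctions, the median member inside its partner had 0% unique reads, and all 16 were at or under 10%. The medians were 8.20% for tail to tail, 22.2% with the partner inside, 92.3% for head to head and 100% without an overlapping coding row. In all, 53 members were at or under 10% and 48 at or above 90%. Neither the strand setting of the counting nor the program is given in the sources used here. Where strand was not used, reads from a gene and from its antisense partner cannot be told apart.

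**Figure D3:**
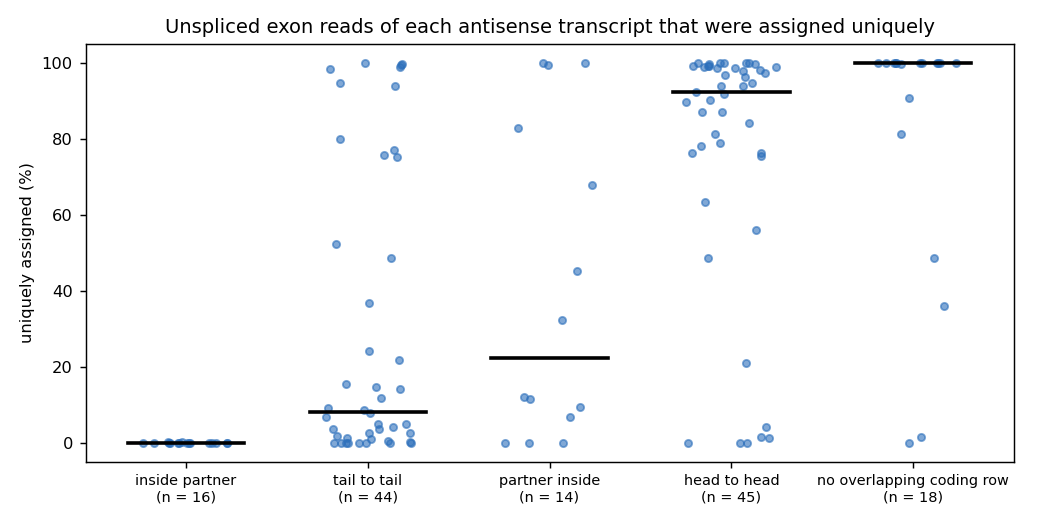
Share of exon reads outside exon-exon junctions that were listed as unique to the antisense transcript (vertical axis, %), for 137 members grouped by how they lie beside a coding gene. Points are members, spread sideways for visibility, and black lines are medians: 0% inside the partner, 8.20% tail to tail, 22.2% with the partner inside, 92.3% head to head and 100% without an overlapping coding row.

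Called changes occurred at both ends of this range. Among the 53 members at or under 10% unique, 20 were higher and 18 lower (71.7% called), and among the 48 at or above 90%, 9 were higher and 14 lower (47.9% called). By position, head to head members split 10 higher and 15 lower, tail to tail 16 and 10, and members without an overlapping coding row 4 and 6. Of members inside their partner 4 were higher and 10 lower (median -0.71), and of those with the partner inside, 8 were higher and 2 lower (median 0.52). Of all genes tested, 63.8% were called, 32.3% higher and 31.5% lower. Some members of these groups reached the read minimum only through the libraries in which they were higher. The counts by position set groups of 14 to 45 members side by side, and no difference between groups of members was tested.

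Unique reads gave another measure of the same libraries. Of the 85 called members, 73 had enough unique exon reads to be tested, 72 of these had the same sign and 61 were called the same way. Among the 23 tested with at least 90% unique reads outside junctions, 23 were called the same way, and among the 26 at or under 10%, 16 were. The former count was largely set in advance, because for those members unique and total reads are nearly the same reads. HNRNPU-AS1 was the single change of sign. Its exon reads rose from 57 and 75 to 122 and 120 (1.03 ± 0.18, adjusted p = 8.9e-05), while its unique exon reads did not differ past the threshold (-0.04, adjusted p = 0.94). It shares its strand with HNRNPU, a gene with far more reads, and overlaps the end of COX20, a cytochrome oxidase assembly gene that fell by 1.13. RP11-479O16.1, inside the vesicle GTPase gene RAB3C, rose by 0.88 in exon reads but was not past the threshold in unique exon reads (0.33, adjusted p = 0.18) or junction reads (0.40, adjusted p = 0.11).

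Junction reads, which join neighbouring exons of 1 transcript, gave a further measure, added after the data were seen. The median member had 15.7% of its exon reads across a junction, and 16 members had under 1%, among them PINK1-AS, MIR1302-9, PTOV1-AS1 and TMPO-AS1. Of the members, 96 could be tested, 17 were higher and 19 lower (37.5% called, against 55.7% of all genes in junction reads, 27.6% higher and 28.0% lower). Of the 61 called in exon reads and tested in junction reads, 59 had the same sign, 34 were called the same way and 0 the opposite way. The other 2 were NIFK-AS1, named after its values were seen, and UBL7-AS1. UBL7-AS1 had 13, 8, 11 and 9 junction reads (0.08).

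**Figure D4:**
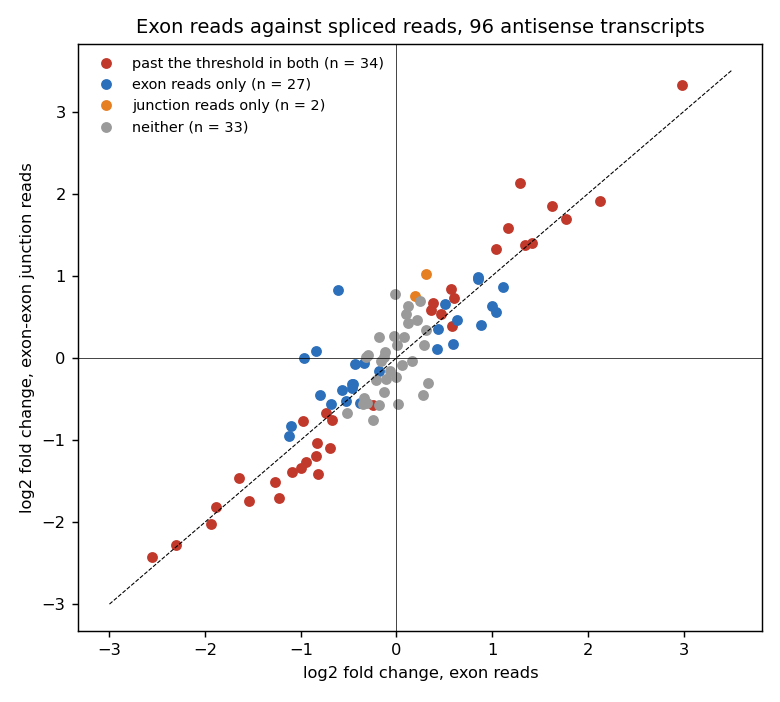
Log2 fold change of 96 antisense transcripts in all exon reads (horizontal axis) and in exon-exon junction reads alone (vertical axis), with the diagonal of equal values dashed. Red points (34) passed the threshold in both, blue points (27) in exon reads only, orange points (2) in junction reads only and grey points (33) in neither; the largest rise, BDNF-AS, lies at 2.98 and 3.32.

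NIFK-AS1 also showed that exon and intron reads of a member can part. Its exon reads fell from 117 and 130 to 59 and 86 (-0.61 ± 0.19, adjusted p = 0.0088, lost without DMSO 2 at -0.57, without wogonin 3 at -0.37 and by DESeq2). Its intron reads were 101 and 108 in DMSO and 282 and 226 after wogonin, and in exon and intron reads together it rose by 0.59 (29.8% of all genes were higher and 29.4% lower in that fit, 59.1% in all). KTN1-AS1 rose in exon reads (126, 151, 240 and 207, 0.85 ± 0.14) while its intron reads went from 129 and 122 to 511 and 496. Over all members, introns held 24.0% and 23.9% of gene reads in DMSO and 36.0% and 30.7% in wogonin 3 and 4. Without the 5 members that gained most (SNAI3-AS1, KTN1-AS1, NUTM2A-AS1, RP11-119F19.2 and PTCHD3P1) the shares were 21.8%, 21.8%, 30.1% and 25.2%. The median over members was 15.6%, 16.9%, 18.4% and 17.3%. Wogonin 3, the highest here, was also the library with the highest intron share over all genes.

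Pairs of a member with the coding gene it overlaps on the opposite strand could be formed for 104 members. Both were higher in 18 pairs and both lower in 8, the member was higher and the coding gene lower in 8, and the reverse held in 8. Only the member was called in 23, only the coding gene in 20 and neither in 19. A limma test of the difference between both changes was past the threshold in 50 of the 104, with 21 members higher than their partner (20.2%) and 29 lower (27.9%). Over all 341 antisense pairs that could be tested, 42.5% were called, 22.0% higher and 20.5% lower. These 341 include the members' own pairs and pairs of rows with fewer reads. Some members also reached the read minimum only through 1 group, so the shares are no result about the members. Across the 104 pairs the log2 fold changes had a Pearson r of 0.16 and a Spearman rho of 0.20, a description over pairs that share libraries and, where reads are not unique, reads. Without DMSO 1 the test called 18 pairs, without DMSO 2 it called 29, and in unique exon reads it called 33 of the 72 members' pairs testable there. In junction reads it called 11 of the 57 members' pairs that could be tested (19.3%), 1 higher and 10 lower, near the 19.8% of all 91 antisense pairs testable there (5.49% higher, 14.3% lower).

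**Figure D5:**
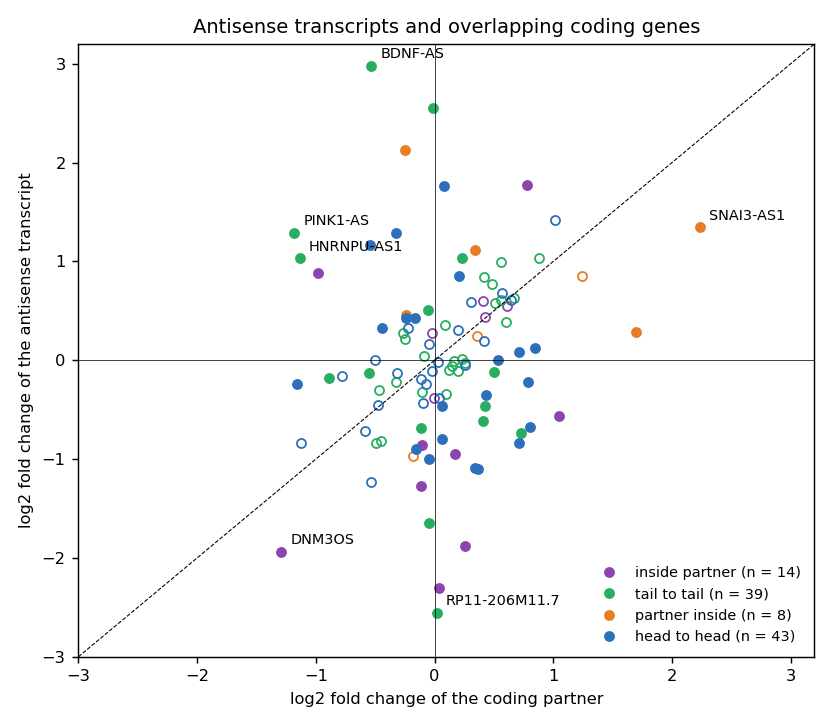
Log2 fold change of 104 antisense transcripts (vertical axis) against that of the coding gene each overlaps (horizontal axis), coloured by arrangement, with the diagonal of equal change dashed. Filled points (50) differed between transcript and gene in the limma pair test and open points (54) did not pass; BDNF-AS stands at 2.98 beside -0.53 for BDNF, and DNM3OS at -1.94 beside -1.29 for DNM3.

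PINK1-AS and PINK1 moved in opposite directions. PINK1, a kinase that marks damaged mitochondria for removal, fell from 679 and 702 to 271 and 275 reads (-1.18, adjusted p = 1.3e-08). PINK1-AS, which overlaps its end, rose from 199 and 197 to 409 and 461 reads, that is from 16.5 ± 0.572 to 40.3 ± 3.06 CPM (1.29 ± 0.11, adjusted p = 3.2e-08). The difference between them was 2.46 ± 0.14 (limma pair test, adjusted p = 2.2e-06), in the same direction in each of the 4 fits with 1 library left out. PINK1-AS had 14.7% unique reads, which rose by 1.15 (adjusted p = 0.00023). It also overlaps 417 bases of DDOST, an oligosaccharyltransferase subunit gene on the same strand, which had 4106 and 3988 reads in DMSO and 5345 and 5128 after wogonin (0.53).

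Other members fell while the gene at which they start rose, and their reads were mostly unique. RNASEH1-AS1, named after its values were seen, fell from 425 and 438 to 225 and 261 reads (-0.67 ± 0.10, adjusted p = 3.3e-05). RNASEH1, an enzyme that cuts RNA in RNA-DNA hybrids, rose from 453 and 468 to 741 and 701 reads (0.80), with overlapping starts 124 bases apart. The difference was -1.47 ± 0.15 (limma pair test, adjusted p = 9.1e-05), and 100% of the RNASEH1-AS1 reads were unique to it. CTD-2574D22.2 (KCTD13-DT) fell from 116 and 122 to 56 and 63 reads (-0.84), while KCTD13, a ubiquitin ligase adaptor gene, rose from 537 and 564 to 806 and 815 (0.72).

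AC009005.2 (BSG-AS1) and SLC16A1-AS1 make up a further such set, also named after their values were seen, because their coding partners work together. BSG encodes basigin, the chaperone of the lactate transporter MCT1, and SLC16A1 encodes MCT1. AC009005.2 fell from 197 and 188 to 87 and 75 reads (-1.09 ± 0.15), and BSG rose by 0.34. SLC16A1-AS1 fell from 73 and 85 to 37 and 29 exon reads (-1.10 ± 0.24), and SLC16A1 rose by 0.37. In junction reads AC009005.2 fell by 1.39, while SLC16A1-AS1 did not pass the test (-0.83, adjusted p = 0.17). In exon and intron reads together SLC16A1-AS1 also did not pass (-0.27). CTD-2336O2.1 (CLN8-AS1), inside CLN8, an endoplasmic reticulum cargo receptor gene that rose by 1.05, was called lower by edgeR (-0.57 ± 0.19, adjusted p = 0.016). This was lost by DESeq2 (adjusted p = 0.14), without DMSO 1 (-0.47) and without wogonin 4 (-0.48). As a member inside its partner, CTD-2336O2.1 had at most 10% unique reads outside junctions. It also did not pass in unique exon reads (edgeR, -0.37, adjusted p = 0.30) or junction reads (edgeR, -0.39, adjusted p = 0.32).

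Pairing by start in place of overlap, also chosen after the data were seen, gave 72 members within 1000 bases of a coding start on the opposite strand, 31 divergent and 41 with overlapping starts. For 70 of them both rows were tested. Both were higher in 7 pairs and both lower in 8, they were called in opposite directions in 11 (4 with the member higher, 7 with the member lower), 13 had only the member called, 20 only the coding gene, and 11 neither. The pair test was past the threshold in 33 of the 70 (15 higher, 18 lower), against 40.5% of all 210 such antisense pairs (18.6% higher, 21.9% lower). The Pearson r of the log2 fold changes was 0.10 and Spearman's rho 0.07 over the 70 pairs.

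The following pairs were picked out after their values were seen, 2 of them because the coding gene works in cholesterol synthesis. No list of such genes was counted or tested. SNAI3-AS1 starts 137 bases from MVD, mevalonate diphosphate decarboxylase, and runs the other way. SNAI3-AS1 rose from 81 and 77 to 177 and 183 reads (6.58 ± 0.417 to 16.7 ± 0.249 CPM, 1.34 ± 0.15, adjusted p = 8.0e-07), and all of its exon reads were unique. MVD rose from 1191 and 1012 to 2723 and 2796 reads (1.48). The difference of -0.16 ± 0.16 was not past the threshold in exon reads (limma pair test, adjusted p = 0.45). With intron reads included it was 0.52 (limma pair test, adjusted p = 0.021). In the exon and intron reads unique to each row it was 0.05 and did not pass (limma pair test, adjusted p = 0.83). Intron reads of SNAI3-AS1 went from 224 and 209 to 974 and 818. SNAI3, a Snail-family repressor gene that lies within SNAI3-AS1 on the opposite strand, rose from 44 and 39 to 184 and 168 exon reads (2.24).

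MCM3AP-AS1 starts 393 bases from LSS, lanosterol synthase, and is divergent from it. It rose from 74 and 97 to 168 and 147 reads (1.04 ± 0.16, adjusted p = 3.6e-05), and LSS rose from 1099 and 1050 to 2246 and 2628 (1.34). The difference of -0.30 ± 0.22 was not past the threshold (limma pair test, adjusted p = 0.29). NNT-AS1 and NNT, a mitochondrial NADPH-forming transhydrogenase gene, were higher by 0.60 and 0.64. By contrast, MAFG-AS1 and MAFG, a small Maf transcription factor gene that starts 115 bases away, moved apart. MAFG rose from 490 and 453 to 943 and 1088 reads (1.26) while MAFG-AS1 fell, a difference of -2.45 ± 0.20 (limma pair test, adjusted p = 0.00027). All MAFG-AS1 reads were unique to it. MAFG-AS1 reached the read minimum only through the DMSO libraries, so its fall and this difference are a description.

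Genes of the machinery that removes or reads such RNAs were followed as lists. Of 36 genes of RNA surveillance (the nuclear exosome and its adaptors, nonsense-mediated decay and decay from the cap), 11 were higher, 8 lower and 17 did not pass, with a median of 0.01. The share called, 52.8%, stands beside 63.8% of all genes tested (32.3% higher, 31.5% lower). ZCCHC8, a subunit of the nuclear exosome targeting complex, fell from 1302 and 1468 to 384 and 452 reads (-1.57 ± 0.09), and the exosome helicase SKIV2L2 (MTR4) fell by 0.53. ZFC3H1, of the poly(A) tail exosome connection, rose from 559 and 554 to 909 and 910 reads (0.87 ± 0.08), and SRRT, which links the cap to the exosome, rose by 0.54. XRN1, the cytoplasmic exonuclease, fell by 0.56. The list thus held changes in both directions.

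Of 23 tested genes that bind, cut, edit or sense RNA duplexes, 9 were higher, 11 lower and 3 did not pass, with a median of -0.18. The share called was 87.0%, beside the same 63.8% of all genes, and the difference was not tested. TLR3, the endosomal receptor for double-stranded RNA, fell from 196 and 195 to 22 and 42 reads (-2.45 ± 0.21). DHX58, a cytosolic helicase of the same sensing system, fell from 212 and 233 to 52 and 56 reads (-1.88 ± 0.15). AGO4 fell by 1.33 while AGO3 rose by 1.10, both Argonaute proteins. DICER1, which cuts duplexes into small RNAs, rose by 0.71, and ADAR, which edits them, by 0.29.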

How the data were processed

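Per the labels' protocols, RNA was column-purified and a SMARTER mRNA kit was used for the libraries. The submitters' processing notes name GRCh37 and hg19; for the aligner, the counter, the annotation and strandedness, nothing is given in the sources used here. The authors deposited 1 table per library with counts of exon, intron, gene and exon-exon junction reads, each as total and unique, per the file headers. Deposited RPKM values described levels per length, and the deposited TPM values and the fraction columns of unique and intron reads were only looked at.

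Members, gene lists and tests were chosen with earlier results of these data known. The gene test on total exon counts was edgeR's robust quasi-likelihood fit (version 4.0.16 under R 4.3.3, TMM factors, filterByExpr, 2-sided, Benjamini-Hochberg adjustment over 13449 genes). A mean ± SD is over 2 libraries in TMM-scaled CPM; SE is that of the log2 fold change. Pairs were tested with limma 3.58.1 on differences of log2 CPM (prior count 2), and DESeq2 1.42.0 was an alternative. Both tests were also run on simulated counts with a common spread for all genes and few changed genes. These settings differ from the present data, so the runs do not show how reliable the calls here are. With 2 libraries a group, the smallest p of an exact permutation test is 0.333. The report names members from the 10 most abundant, the 12 largest rises and falls, the 6 largest pair differences each way, a list of described antisense RNAs, and their partners, leaving some out; others are marked. Starts and distances between genes are on the build of the files, and promoter windows are on GRCh38.p14.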

Additional observations from a re-analysis of the deposited data

Results flagged for a closer look

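The tables also hold 503 antisense rows that list no exons, whose reads all stand in the intron column and which are not members. Above, those with enough reads entered only the fits on gene reads, as part of all genes. Of the 503 rows, 11 held 200 or more gene reads over the 4 libraries. In the fit on gene reads 2 of them were higher in the wogonin libraries than in the DMSO libraries, and 6 were lower (edgeR, background 29.8% of genes higher and 29.4% lower in gene reads). FOXD2-AS1, beside a forkhead gene, had 111 and 102 reads in DMSO and 176 and 148 after wogonin (0.68 ± 0.16, adjusted p = 0.0034). The other, listed under a clone name on chromosome 10, had 77 and 57 against 90 and 112 (0.67 ± 0.23, adjusted p = 0.028). The falls ran from -0.65 in RHPN1-AS1 to -1.33 in FBXL19-AS1, which had 81 and 81 reads in DMSO and 28 and 33 after wogonin. FBXL19-AS1 reached the minimum of 200 only through the DMSO libraries, so its fall was favoured by the choice of rows and is a description.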

How the results depend on the processing

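No paired analysis was possible because the libraries are numbered 1 and 2 in one group and 3 and 4 in the other. The counts of 42 members higher and 43 lower moved by over 1.5 times in 2 settings. They were 17 and 19 in junction reads, where fewer members were tested, and 22 and 25 with a minimum of 400 summed reads, which kept 72 members. Leaving out 1 library gave 33 to 40 higher and 35 to 44 lower. The 50 pairs that differed became 33 with coding starts within 1000 bases, 33 in unique exon reads, 11 in junction reads and 18 to 41 with 1 library left out, the lowest without DMSO 1; a lone library was assumed to vary like the other group. Single values turned in sign as follows, and the cause was not tested. In junction reads LINC00094 was 0.0092, UBL7-AS1 0.084, NIFK-AS1 0.83, TM4SF18 -0.61, DLGAP1 -0.066, RBM26 -0.060 and NNT-AS1 minus NNT 0.019. With library totals alone TM4SF18 was -0.073, DLGAP1 -0.055 and RBM26 -0.010; this scaling set the median of all genes to -0.09. In gene reads NIFK-AS1 was 0.59, TM4SF18 -0.097, DLGAP1 -0.31 and SNAI3-AS1 minus MVD 0.52. In unique exon reads HNRNPU-AS1 was -0.044, TM4SF18 -0.63, DLGAP1 -0.0040 and MCM3AP-AS1 minus LSS 0.045. In unique gene reads STARD4-AS1 was 0.062, NIFK-AS1 0.60, TM4SF18 -0.69, DLGAP1 -0.28 and SNAI3-AS1 minus MVD 0.054. With 1 library left out TM4SF18 ran from -0.066 to 0.087, DLGAP1 from -0.065 to 0.13, RBM26 from -0.051 to 0.21, SH3BP5 from -0.26 to 0.20 and NNT-AS1 minus NNT from -0.21 to 0.13. Of 1325 values recomputed for 108 single results, 1247 kept their direction and their side of the threshold, 46 fell short of it and 3 newly passed it. Junction reads and pairing by start were chosen after seeing the data. Members near the minimum of 200 summed reads rest on few reads a library, which limits how small a difference could be detected.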
